A study of Mus musculus with 3 samples.

Results

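Ank2, Ank3, Sptan1 and Sptbn1 encode ankyrin-B, ankyrin-G, αII-spectrin and βII-spectrin, the main neuronal members of the ankyrin and spectrin families. These 4 genes were taken by symbol from the 14933 genes counted in single cells of the medial prefrontal cortex (mPFC) of C57Bl6 mice at P5, and each symbol matched 1 row. tdTomato+ cells were isolated by FACS, and 1 10X Chromium library was made from each of 3 genotypes, a wild-type group (Rbp4cre::tdTomato), a heterozygous group (Tbr1f/+::Rbp4cre::tdTomato) and a homozygous group (Tbr1f/f::Rbp4cre::tdTomato). All 3 groups carried the Rbp4cre driver, which acts in layer 5 projection neurons, and the tdTomato reporter, and the mutant groups differed from wild-type by 1 or both floxed alleles of Tbr1, a T-box transcription factor of deep cortical layers. The labels do not say how many animals entered a library. With 1 library per genotype there was no replicate, genotypes were compared without a test, and the 95% intervals given here cover counting error only.

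Spectrins are long rods of paired α and β chains that crosslink short actin filaments into a lattice under the plasma membrane, and along axons this lattice is arranged as evenly spaced actin rings. Ankyrins bind β-spectrin on the inner side and ion channels and adhesion molecules in the membrane, and so fix them in place. Ankyrin-G assembles the axon initial segment, the site where action potentials start, and ankyrin-B and βII-spectrin are spread along the rest of the axon, where they also take part in cargo transport. αII-spectrin is the only α chain of non-erythroid cells and pairs with each of the β chains of the neuron.

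In the GENCODE vM21 annotation of GRCm38, Ank2 (ENSMUSG00000032826) lies at chr3:126921612-127499350 on the minus strand and Ank3 (ENSMUSG00000069601) at chr10:69398773-70027438 on the plus strand. The 2 ankyrin genes span 577.7 kb and 628.7 kb, and their annotated coding transcripts, 16 for Ank2 and 31 for Ank3, stop at 15 and 20 different ends. The longest exon of Ank2 has 6198 bases and that of Ank3 7674 bases, and exons of this kind encode the giant neuronal isoforms. Sptan1 (ENSMUSG00000057738) lies at chr2:29965560-30031451 on the plus strand and Sptbn1 (ENSMUSG00000020315) at chr11:30099395-30268175 on the minus strand, with 5 and 4 different ends of coding transcripts. The kit reads the 3′ ends of transcripts and the counts were summed per gene, so the values do not separate giant from short ankyrins, and they were not divided by transcript length. Levels are therefore compared between cells and libraries within a gene, not between genes.

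TBR1 is a T-box factor, and the promoters are printed here to show where the T-box core, GGTGTGA or its complement TCACACC, does and does not occur beside the members. RefSeq (GRCm38.p6) gave 4 promoters for Ank2, 1 for Sptan1 and 2 for Sptbn1, while Ank3 had no entry in the table. The lines that follow hold the 250 bases before the most upstream listed start of Ank2 and Sptan1 and before both listed starts of Sptbn1, which differ in base composition, read 5′ to 3′ on the strand of the gene, with the T-box core in capitals.
Ank2, chr3:127499116-127499365, minus strand: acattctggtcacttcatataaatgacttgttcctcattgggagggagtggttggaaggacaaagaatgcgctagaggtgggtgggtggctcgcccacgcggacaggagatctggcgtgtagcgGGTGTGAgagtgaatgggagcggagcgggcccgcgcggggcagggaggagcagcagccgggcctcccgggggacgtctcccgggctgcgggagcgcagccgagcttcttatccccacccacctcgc
Sptan1, chr2:29965310-29965559, plus strand: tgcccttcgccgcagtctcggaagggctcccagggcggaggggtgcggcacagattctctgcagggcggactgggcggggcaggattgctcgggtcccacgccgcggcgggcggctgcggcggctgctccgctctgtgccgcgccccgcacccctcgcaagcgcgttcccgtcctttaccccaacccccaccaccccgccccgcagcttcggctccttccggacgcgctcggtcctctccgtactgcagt
Sptbn1, first start, chr11:30219773-30220022, minus strand: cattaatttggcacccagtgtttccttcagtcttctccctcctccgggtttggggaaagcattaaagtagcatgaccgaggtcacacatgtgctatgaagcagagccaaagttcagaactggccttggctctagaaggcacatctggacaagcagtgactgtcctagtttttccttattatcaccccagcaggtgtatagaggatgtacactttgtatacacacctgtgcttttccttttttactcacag
Sptbn1, second start, chr11:30198258-30198507, minus strand: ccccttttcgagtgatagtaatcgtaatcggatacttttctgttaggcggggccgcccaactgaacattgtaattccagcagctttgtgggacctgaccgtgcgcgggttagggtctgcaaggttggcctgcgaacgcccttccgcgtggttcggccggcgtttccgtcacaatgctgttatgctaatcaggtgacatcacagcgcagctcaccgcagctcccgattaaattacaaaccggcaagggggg
The core was found on either strand in 1 of the 4 Ank2 promoters, 126 bases before the RefSeq start, and in neither the Sptan1 promoter nor the Sptbn1 promoters. This match lies within the GENCODE span of Ank2, whose 5′ end is at 127499350. Both printed Sptbn1 stretches also lie within the GENCODE span of their gene. The core occurred in 3.33% of all 32851 promoters of the table, so 1 match is a description of these letters. Whether TBR1 binds there was not tested. The Sptan1 promoter is 73.6% G or C with 31 CpG, the printed Ank2 promoter 64.4% with 19 CpG, the first Sptbn1 promoter 46% with 2 CpG and the second 55.6% with 20 CpG, against a median of 52.4% G or C over all promoters.

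The authors divided the 17396 filtered cells into typical neuronal cells (1778 wild-type, 5357 heterozygous and 3935 homozygous), atypical neuronal cells that they left out of their comparisons (304, 107 and 462), and cells outside the neuronal list (2873, 1398 and 1182), called other cells below. Unique molecular identifiers (UMIs) were summed over the cells of a set and given as CPM, the UMIs of a gene per 1000000 UMIs of that set. The paper filtered the cells of its neuronal clusters a second time, by UMIs and genes per cell, so cells removed there count as other cells. Typical cells held at most 3957, 3995 and 3915 UMIs in the wild-type, heterozygous and homozygous libraries, and other cells up to 9263, 9648 and 9076. Typical and other cells therefore differ in depth as well as in type. Values for the libraries are given throughout in the order wild-type, heterozygous, homozygous. The typical sums held 3670646, 10418228 and 6074494 UMIs, with a median of 1901, 1743 and 1375 UMIs per cell and a median mitochondrial share of 10.4, 15.4 and 12.5%. Barcodes shared between libraries numbered 37 to 58 for any pair. Tbr1 was counted at 27.5, 30.7 and 22.4 CPM in typical cells (101, 320 and 136 UMIs), and counts at the 3′ end do not show the floxed exons 2 and 3, so they do not check the deletion.

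The neuronal label was checked against markers, with empty droplets, the barcodes of 100 to 499 UMIs that are not filtered cells, as a measure of free RNA. Nrgn, a postsynaptic protein of excitatory neurons, had 1692, 2062 and 2722 CPM in typical cells, and Neurod6, a transcription factor of cortical projection neurons, had 201, 246 and 240 CPM. Of the genes of layer 5, Fezf2 had 43.0, 47.8 and 52.0 CPM, above the 22.2, 31.1 and 33.7 CPM of empty droplets. Rbp4, whose promoter drives the Cre, had 12.3, 14.7 and 14.3 CPM, against 10.9, 22.7 and 12.7 CPM in empty droplets, so it did not stand out in typical cells. Meg3 had 49.6, 28.2 and 28.0 CPM in typical cells, below the 107.6, 107.0 and 71.5 CPM of empty droplets. Other cells held Rbp4 at 9.40, 31.0 and 35.3 CPM and Meg3 at 1470, 1100 and 1553 CPM. Snap25 had 162.1, 241.1 and 227.3 CPM in typical cells against 102.9, 185.9 and 164.2 CPM in empty droplets. Stmn2 had 3591, 2895 and 2780 CPM against 2925, 2501 and 2361 CPM. Fabp7, a lipid-binding protein of radial glia and astrocytes, was also high in typical cells at 5713, 4775 and 5647 CPM and was found in 99.6 to 99.9% of them, which goes against a purely neuronal profile. Empty droplets held Fabp7 at 5752, 5111 and 5855 CPM. Over genes that averaged 20 CPM or more, the log2 CPM of typical cells and of empty droplets of the same library had a Pearson r of 0.979, 0.979 and 0.985, a description across genes that share a library. Nrgn itself had 876, 1306 and 1551 CPM in empty droplets, and the summed endothelial markers 406, 177 and 216 CPM. The levels of the 4 members in typical cells are given beside those of the empty droplets.

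Ankyrin-B was the member that stood furthest above the empty droplets. Ank2 had 264.5 CPM in typical wild-type cells (95% interval 248.2 to 281.7, 971 UMIs), 213.9 CPM in heterozygous cells (205.1 to 222.9, 2228 UMIs) and 253 CPM in homozygous cells (240.5 to 266, 1537 UMIs). The wild-type and homozygous intervals overlapped and the heterozygous interval lay below both. In empty droplets Ank2 had 142.9, 105.6 and 127.1 CPM, and typical cells were above empty droplets by a log2 ratio of 0.89 (0.78 to 1.0), 1.02 (0.91 to 1.13) and 0.99 (0.89 to 1.09). Of the genes compared, 24 of 4185 in wild-type, 0 of 4336 in heterozygous and 1 of 4293 in homozygous cells had a larger ratio than Ank2. No other gene of at least 20 CPM was therefore raised as far above the empty droplets as Ank2 in heterozygous typical cells.

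Ankyrin-G, the organizer of the axon initial segment, also stood above the empty droplets. Ank3 had 70.6 CPM (62.2 to 79.7), 58.5 CPM (53.9 to 63.3) and 63.5 CPM (57.4 to 70.2) in typical cells of the wild-type, heterozygous and homozygous libraries, from 259, 609 and 386 UMIs. The empty droplets held 45.7, 40.2 and 37.5 CPM, which gave log2 ratios of 0.63 (0.41 to 0.83), 0.54 (0.35 to 0.74) and 0.76 (0.57 to 0.95). All 3 libraries thus had more Ank3 in typical cells than in free RNA.

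Both spectrin chains were above the empty droplets by similar amounts. Sptan1 had 82.0 CPM (73.0 to 91.8, 301 UMIs), 61.4 CPM (56.8 to 66.4, 640 UMIs) and 71.4 CPM (64.9 to 78.5, 434 UMIs), with 53.9, 48.0 and 52.3 CPM in empty droplets. Sptbn1 had 173 CPM (159.8 to 187, 635 UMIs), 142.8 CPM (135.7 to 150.3, 1488 UMIs) and 156.1 CPM (146.3 to 166.3, 948 UMIs), with 115.5, 100 and 111.1 CPM in empty droplets. For both spectrins the wild-type and heterozygous intervals did not overlap, and the homozygous level lay between them. The log2 ratio to empty droplets was 0.60, 0.36 and 0.45 for Sptan1 and 0.58, 0.51 and 0.49 for Sptbn1.

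**Figure D1:**
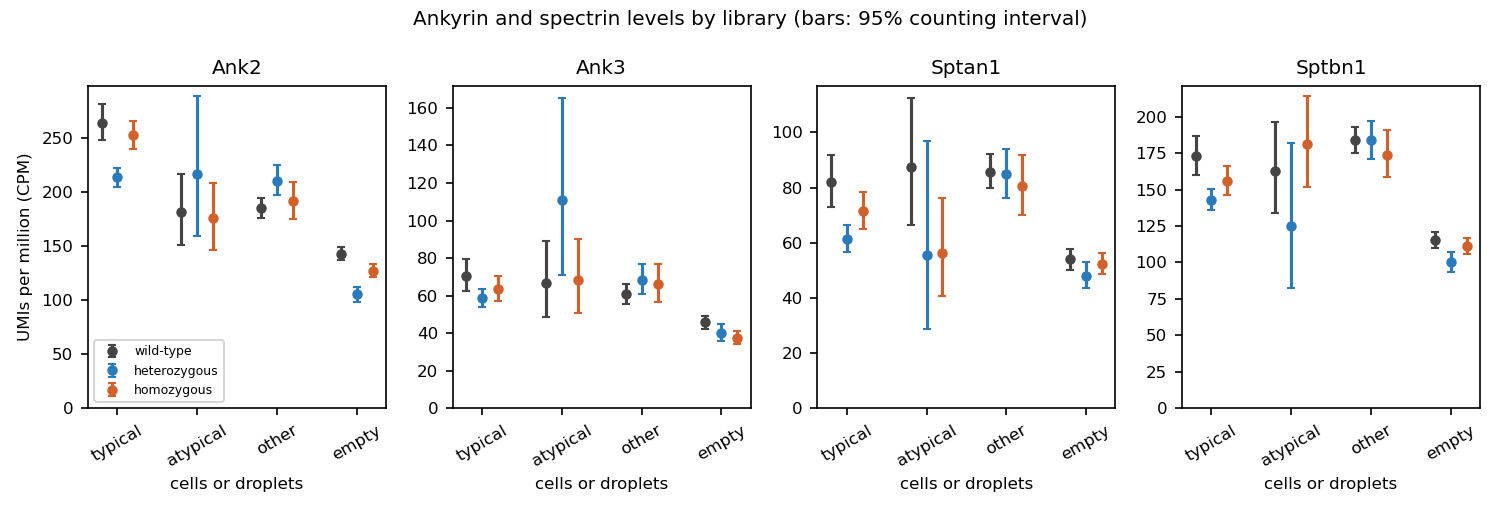
Level of each member in CPM (y axis, from 0) in typical, atypical and other cells and in empty droplets (x axis) of the 3 libraries, with 95% counting intervals as bars. Ank2 in typical cells lies between 213.9 and 264.5 CPM against 105.6 to 142.9 CPM in empty droplets.

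Past a fold of 1.3, the threshold used here for a difference between sums, 14.1% of 4185 genes were higher in typical cells than in empty droplets in the wild-type library, where 4 of the 4 members were. In the heterozygous library the share was 6.18% and 3 members passed, with Sptan1 below the threshold at 0.36 (0.17 to 0.54). In the homozygous library it was 8.92%, and 4 members passed. The members lay at the 93.1 percentile of genes or higher in each library, and the median gene had a log2 ratio of 0.06, −0.01 and 0.02. Other cells were raised more widely over empty droplets, with 57.4, 31 and 46.7% of genes past the fold, and the members lay at percentiles of 42.5 to 58.6, 84.6 to 89.5 and 64.7 to 72.7. In other cells 3 members passed the fold in the wild-type library, with Ank2 at 0.377 just under it, and all 4 in the heterozygous and the homozygous library. The log2 ratios were 0.38 to 0.67, 0.77 to 1.0 and 0.60 to 0.82, beside 0.51, 0.12 and 0.32 for the median gene.

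The comparison of genotypes asks whether the lattice genes differ in typical cells of mice that carry floxed Tbr1 alleles together with the Rbp4cre driver. All 4 members were lower in the heterozygous than in the wild-type library, and in CPM Sptan1 was the only one past 1.3-fold. The log2 ratio was −0.31 for Ank2 (−0.42 to −0.20), −0.27 for Ank3 (−0.48 to −0.06), −0.42 for Sptan1 (−0.62 to −0.21) and −0.28 for Sptbn1 (−0.41 to −0.14). Among all 4230 genes of at least 20 CPM, 7.73% were lower past the fold and 12.3% higher, so 1 of 4 members lower past it is not a result about the members. The median gene stood at 0.06, and the members lay at percentiles of 10.9, 13.0, 6.29 and 12.5 in the order Ank2, Ank3, Sptan1, Sptbn1. The summed UMIs of the 4 genes gave −0.31 (−0.38 to −0.23). Which members passed the fold changed with the processing. Sptan1 was below it in cells with 10 to 15% mitochondrial UMIs, in cells matched for UMIs and without mitochondrial genes in the denominator (−0.22, −0.32 and −0.33), Ank2 was past it as raw UMIs per cell (−0.39), with the profile of empty droplets taken off (−0.39) and in cells with 10 to 15% mitochondrial UMIs (−0.54), and Ank3 when cells were thinned to 1000 UMIs (−0.42).

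In the homozygous library, with both alleles floxed, the members were closer to wild-type in CPM. The log2 ratio to wild-type was −0.06 for Ank2 (−0.18 to 0.05), −0.15 for Ank3 (−0.38 to 0.08), −0.20 for Sptan1 (−0.41 to 0.02) and −0.15 for Sptbn1 (−0.30 to −0.0013). None of the 4 passed 1.3-fold, against 6.39% of 4269 genes lower and 11.5% higher past it, and 1 interval, that of Sptbn1, excluded 0. The sum of the members gave −0.12 (−0.20 to −0.04). As raw UMIs per cell the homozygous library was further from wild-type than the heterozygous library, at −0.48, −0.57, −0.62 and −0.57 against −0.39, −0.36, −0.50 and −0.36 in the order Ank2, Ank3, Sptan1, Sptbn1, and homozygous cells had the fewest UMIs per cell. The wild-type library enters both comparisons, so a high wild-type value lowers both.

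Homozygous cells were compared with heterozygous cells directly, without the wild-type library. The log2 ratio was 0.24 for Ank2 (0.15 to 0.34), 0.12 for Ank3 (−0.07 to 0.31), 0.22 for Sptan1 (0.04 to 0.40) and 0.13 for Sptbn1 (0.0088 to 0.25). The sum stood at 0.19 (0.13 to 0.25). Again 0 of the 4 passed the fold, which 2.76% of genes passed upward and 1.86% downward. In CPM the order of the libraries was wild-type, homozygous, heterozygous for each member. As raw UMIs per cell the homozygous library was lowest instead, at −0.09, −0.21, −0.12 and −0.21 to the heterozygous library, and in cells matched for UMIs it was above wild-type for Ank2 (0.13), Ank3 (0.07) and Sptan1 (0.05) and at −0.04 for Sptbn1. With 1 library per genotype, genotype and library cannot be told apart.

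**Figure D2:**
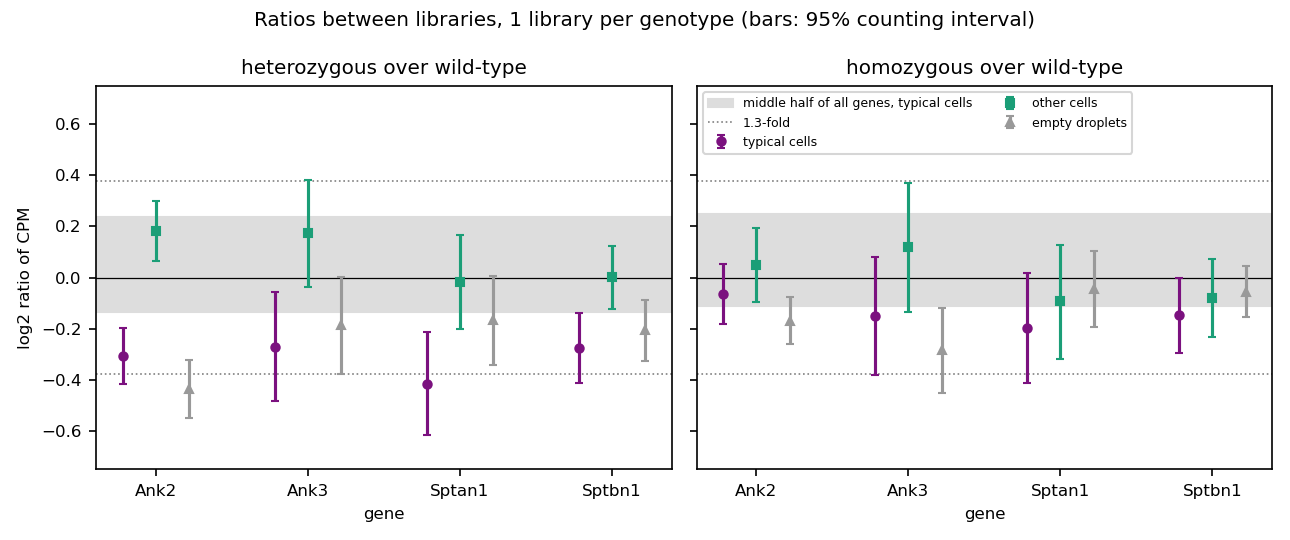
Log2 ratio of each mutant library to the wild-type library (y axis) for the 4 members (x axis) in typical cells, other cells and empty droplets, with 95% counting intervals, the middle 50% of all genes in typical cells shaded and 1.3-fold dotted. Typical cells of the heterozygous library lie between −0.42 and −0.27, and those of the homozygous library between −0.20 and −0.06.

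The free RNA of the libraries differed as well. In empty droplets the heterozygous over wild-type ratio was −0.44 for Ank2 (−0.55 to −0.32), −0.19 for Ank3 (−0.38 to 0.0021), −0.17 for Sptan1 (−0.34 to 0.0060) and −0.21 for Sptbn1 (−0.33 to −0.09), beside a median gene of 0.14 and 7.06% of genes lower past the fold. For Ank2 the difference in empty droplets was as large as that in typical cells. The homozygous over wild-type ratio in empty droplets was −0.17 for Ank2 (−0.26 to −0.08) and −0.28 for Ank3 (−0.45 to −0.12), with −0.04 for Sptan1 and −0.06 for Sptbn1, where 6.37% of genes were lower past the fold. The part of free RNA in the ratios of typical cells was not tested beyond the subtraction given with the processing alternatives.

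RNA of other cell types also differed between the typical sums, and none of the markers summed here was at 0. The summed blood markers (5 genes, hemoglobins and Alas2) differed most, with 345.2, 44.6 and 85.8 CPM, and no class of blood cells was named in which to measure the members. The summed endothelial markers (6 genes) had 107.3, 31.0 and 54.2 CPM, the summed microglial markers (7 genes) 55.8, 29.3 and 33.6 CPM, and the inhibitory markers (8 genes) 334.8, 250.4 and 254.3 CPM. Set against the level of the same markers in endothelial cell-like cells, the endothelial part corresponds to 0.954, 0.325 and 0.447% of the typical UMIs, and at that share endothelial RNA would carry 4.83, 1.78 and 1.6 CPM of Sptbn1 and 1.68, 0.593 and 0.718 CPM of Sptan1. The same calculation for inhibitory cells gave shares of 11.1, 5.42 and 4.02%, which count free RNA too. Those shares also follow the marker level of inhibitory neuron-like cells, at 3005, 4618 and 6330 CPM. This level differed more between the libraries than the level of the same markers in typical cells. At these shares inhibitory RNA would carry 32.5, 13.5 and 11.1 CPM of Ank2, 13.5, 7.56 and 6.61 CPM of Ank3, 14.0, 6.38 and 4.66 CPM of Sptan1 and 18.2, 8.24 and 6.76 CPM of Sptbn1, and its part in the ratios between genotypes was not tested.

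Depth within a library moved with the members as well. When the typical cells of each library were divided into 3 equal groups by UMIs per cell, Ank2 had 214.3 CPM in the shallowest and 322.8 CPM in the deepest wild-type cells, 169.7 and 238.7 CPM in heterozygous cells and 209 and 291.3 CPM in homozygous cells. In each library the intervals of the shallowest and deepest cells did not overlap for Ank2. Ank3 had 59.0 and 77.7 CPM in the shallowest and deepest wild-type cells, 49.9 and 63.5 CPM in heterozygous cells and 42.6 and 75.1 CPM in homozygous cells, with intervals apart in the homozygous library only. Sptan1 had 71.4 and 86.0 CPM, 57.0 and 65.4 CPM, and 60.2 and 84.1 CPM in the same order, with overlapping intervals in all 3 libraries. Sptbn1 had 151.1 and 192.3 CPM, 117.7 and 157.5 CPM, and 148.1 and 172.5 CPM, with intervals apart in the heterozygous library only. Each member was higher in the deepest than in the shallowest cells of every library. Overlap of separate intervals does not show that levels are alike, and no interval of the ratio between depth groups was computed. A cell of given depth in the heterozygous library had less Ank2 than one in the homozygous library, as the deepest homozygous cells, at a median of 1975 UMIs, had 291.3 CPM and the heterozygous cells of a median of 2614 UMIs had 238.7 CPM.

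**Figure D3:**
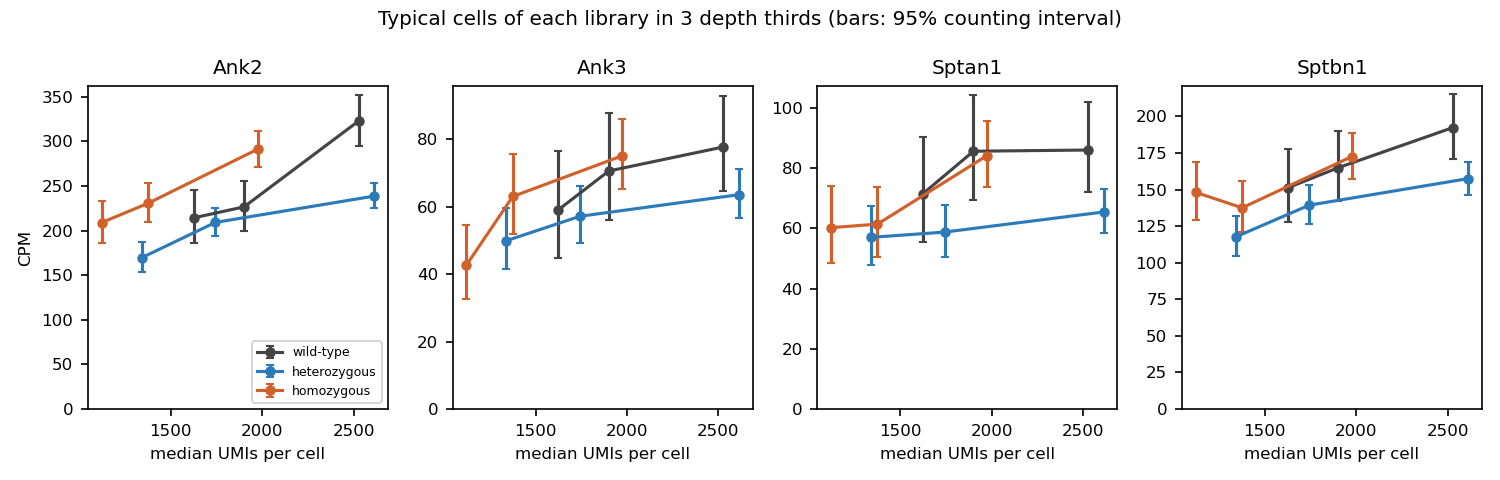
Level of each member in CPM (y axis, from 0) in the shallowest, middle and deepest typical cells of each library, against the median UMIs per cell (x axis), with 95% counting intervals. Ank2 is higher in deeper cells of all 3 libraries, with 169.7 CPM in the shallowest and 238.7 CPM in the deepest heterozygous cells.

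Most typical cells carried few UMIs of any member. Ank2 was found in 37.3% of wild-type, 30.4% of heterozygous and 29.3% of homozygous typical cells, and in 21.5, 17.5 and 20.3% after every cell was thinned to 1000 UMIs, which left out 0 cells. The thinned share was 6.97, 5.34 and 5.82% for Ank3, 8.04, 5.62 and 6.35% for Sptan1 and 14.6, 12.6 and 14.3% for Sptbn1, from 13.1, 10.4 and 8.95%, 15.9, 11.2 and 10.3%, and 29.0, 23.3 and 20.9% before thinning. Thinning thus raised the homozygous library from the lowest share to a place between the others for all 4 members. For comparison, endothelial cell-like cells had thinned shares of 6.69, 3.95 and 4.92% for Ank2 and 1.18, 2.63 and 1.64% for Ank3 at a median of 3270, 2542 and 2512 UMIs. Empty droplets held more Ank2 (105.6 to 142.9 CPM) than endothelial cell-like cells (26.8 to 51.5 CPM), so these shares do not measure the free RNA in typical cells. No class lacked the spectrins, so their shares have no such comparison. No typical cell had more than 8 UMIs of Ank2, and 35.2, 44.8 and 47.5% of typical cells had no UMI of any member.

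The atypical cells, which the authors set apart, had less Ank2 than typical cells in 2 of the 3 libraries. Ank2 was at 182, 217.3 and 175.8 CPM in wild-type, heterozygous and homozygous atypical cells, and the log2 ratio to typical cells was −0.54 (−0.82 to −0.27), 0.02 (−0.43 to 0.44) and −0.53 (−0.79 to −0.27). Past 1.3-fold, 15, 29.4 and 21.8% of genes were lower in atypical cells, so this is not rare among genes. Ank3 had 66.6, 111 and 68.4 CPM there, and the heterozygous value, from 24 UMIs in 107 cells, was 0.92 above typical cells (0.27 to 1.51), where 19.2% of genes were higher past the fold. Sptan1 had 87.3, 55.5 and 56.4 CPM and Sptbn1 162.8, 124.8 and 181.2 CPM, and the homozygous over wild-type ratio of Sptan1 in atypical cells was −0.63 (−1.24 to −0.04) beside 25% of genes lower past the fold.

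In cells outside the neuronal list Ank2 had 185.6, 210.7 and 192 CPM, and the log2 ratio to typical cells was −0.51 (−0.63 to −0.39), −0.02 (−0.13 to 0.09) and −0.40 (−0.55 to −0.25), while 16.4, 6.03 and 14.3% of genes were lower past the fold. The heterozygous value was −0.27 in thinned cells, −0.37 with DESeq2 size factors and −0.26 with TMM factors. As raw UMIs per cell the values were 0.03, 0.65 and 0.15. Ank3 had 60.8, 68.5 and 66.1 CPM in other cells, Sptan1 85.8, 84.8 and 80.4 CPM and Sptbn1 183.7, 183.9 and 174 CPM. These 3 genes varied little in CPM between the libraries in other cells, but as raw UMIs per cell homozygous over wild-type was −0.29, −0.51 and −0.49. In the heterozygous library the 3 genes were above typical cells in CPM, by 0.23 for Ank3 (0.02 to 0.43), 0.46 for Sptan1 (0.28 to 0.65) and 0.36 for Sptbn1 (0.24 to 0.49), where 32.9% of genes were higher past the fold. With DESeq2 size factors these ratios were −0.12, 0.12 and 0.02, with TMM factors −0.01, 0.22 and 0.12, and as raw UMIs per cell 0.90, 1.13 and 1.03. Over all 9 sums, neighbours in the order of levels had a ratio whose interval excluded 0 in 2 places, homozygous typical over heterozygous typical cells for Sptan1 and the same pair for Sptbn1.

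Between genotypes, the sum over all other cells of the homozygous library had log2 ratios to wild-type of 0.05 for Ank2, 0.12 for Ank3, −0.09 for Sptan1 and −0.08 for Sptbn1, with intervals that covered 0. The heterozygous library had ratios of 0.18 for Ank2 (0.06 to 0.30), 0.17 for Ank3 (−0.04 to 0.38), −0.02 for Sptan1 (−0.20 to 0.17) and 0.00 for Sptbn1 (−0.12 to 0.12). The sign of this heterozygous ratio for Ank2 changed with the processing. It was −0.22 in cells thinned to 1000 UMIs and −0.05 as the average over cells of UMIs per 10000, but 0.37 with DESeq2 and 0.35 with TMM factors. The sum of the 4 genes stood at 0.09 (0.01 to 0.16), while the median of 5870 genes was −0.19, with 35% of genes lower and 13.8% higher past the fold. The mix of cells differed strongly between the libraries, since 264 of the 331 cells of an excitatory cluster led by Nrgn came from the heterozygous library, and its part in these ratios was not tested. Within the 4 named classes with at least 50 cells in both libraries, described below, Ank2 had values on the other side of 0, at −0.22 in excitatory neuron-like cells (−0.57 to 0.14), −0.23 in inhibitory neuron-like cells (−0.51 to 0.05), −0.23 in astrocyte and radial glia-like cells (−0.61 to 0.14) and −0.57 in endothelial cell-like cells (−1.85 to 0.52), each with an interval that covered 0.

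Cells outside the list were clustered without the members, and 12 of 24 clusters, with 3373 of 5453 cells, were named from markers. Ratios of a class to typical cells are in CPM only, and no share of genes past the fold was computed for them. For all other cells together, 53.7, 32.9 and 45% of genes were higher than in typical cells past the fold. The median gene was at 0.46, 0.14 and 0.29 there. DESeq2 and TMM factors were not applied to single classes. Among the classes with at least 50 cells, endothelial cell-like cells had the highest spectrin and the lowest ankyrin values. They had 506.6, 547.5 and 358.8 CPM of Sptbn1 in 254, 76 and 122 cells, a log2 ratio to typical cells of 1.55 (1.38 to 1.72), 1.94 (1.67 to 2.20) and 1.20 (0.93 to 1.46). Sptan1 had 176.1, 182.5 and 160.7 CPM and ratios of 1.10, 1.57 and 1.17. The ankyrins stood at 51.5, 34.8 and 26.8 CPM for Ank2, from 50, 8 and 10 UMIs, and at 15.4, 21.7 and 8.03 CPM for Ank3, from 15, 5 and 3 UMIs. The Ank2 ratio to typical cells was −2.36 (−2.80 to −1.95), −2.62 (−3.83 to −1.64) and −3.24 (−4.30 to −2.36). The intervals of the ratio to the next class covered 0 for Ank3 in the wild-type and heterozygous libraries and for Sptan1 in the homozygous library. The next class for Ank3 in the wild-type library was mural cell-like cells, with 15.5 CPM. Mural cell-like cells of the wild-type library (71) had 103 CPM of Ank2, 82.5 CPM of Sptan1 and 160 CPM of Sptbn1. Levels of Ank2 and Ank3 in endothelial cell-like cells were below those of the empty droplets of the same library.

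Inhibitory neuron-like cells (686, 177 and 197) had, as a class, more ankyrin-G and αII-spectrin RNA in CPM than typical cells in all 3 libraries. Ank3 was at 121, 139.3 and 164.4 CPM, with ratios to typical cells of 0.78 (0.50 to 1.05), 1.25 (0.89 to 1.6) and 1.37 (1.02 to 1.71), and Sptan1 was at 125.3, 117.6 and 116.1 CPM, with 0.61 (0.35 to 0.87), 0.94 (0.55 to 1.31) and 0.70 (0.29 to 1.09). Ank2 at 291.9, 249.7 and 276.7 CPM and Sptbn1 at 163.6, 152 and 168.3 CPM had ratios whose intervals covered 0. The thinned share of cells with Ank3 was 8.16, 11.9 and 18.3% in this class, against 6.97, 5.34 and 5.82% in typical cells. For Sptan1 the thinned share was 10.9, 9.04 and 11.2% against 8.04, 5.62 and 6.35%. The intervals of these shares overlapped between the class and typical cells for Ank3 in the wild-type library and for Sptan1 in all 3 libraries. The class held 2 clusters, a cluster led by Npy and Sst, peptides of interneurons, and a cluster led by Dlx6os1 and Sp8, genes of developing interneurons. Ank3 was at 233.8, 161 and 176.9 CPM in the former (125, 99 and 110 cells) and at 81.1, 80.6 and 128.3 CPM in the latter (561, 78 and 87 cells), so the clusters made up the class in different shares in each library. Sptan1 was at 179.5, 118.9 and 137.9 CPM in the former and at 106.1, 114.2 and 52.8 CPM in the latter, where the homozygous value, from 7 UMIs, was below that of typical cells. Sptbn1 was at 281.1, 185.8 and 179.5 CPM in the former and at 122, 60.4 and 135.8 CPM in the latter.

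Between genotypes, Ank3 in inhibitory neuron-like cells as a class was higher in the homozygous than in the wild-type library, by 0.44 on the log2 scale (0.06 to 0.82), but within the Npy and Sst cluster it had the opposite sign, −0.40 (−0.87 to 0.06). In that cluster all 4 members were lower in both mutant libraries, a split examined after the values were seen. Its heterozygous over wild-type ratio was −0.38 for Ank2 (−0.75 to −0.01), −0.54 for Ank3 (−1.01 to −0.07), −0.59 for Sptan1 (−1.15 to −0.05) and −0.60 for Sptbn1 (−1.03 to −0.17), at a median of 4096 UMIs per cell against 2908 in wild-type. All 4 passed 1.3-fold, as did 27.2% of 6429 genes in this small cluster, and the members lay at percentiles of 16.8 to 26.9. The homozygous ratios to wild-type were −0.36 for Ank2, −0.38 for Sptan1 and −0.65 for Sptbn1, of which that of Sptbn1 had an interval below 0 (−1.10 to −0.21), and 3 of the 4 members passed the fold, as did 25.4% of genes. In the Dlx6os1 and Sp8 cluster the heterozygous over wild-type ratio was −0.39 for Ank2 (−0.97 to 0.14), −0.01 for Ank3 (−1.01 to 0.86), 0.11 for Sptan1 (−0.72 to 0.84) and −1.01 for Sptbn1 (−2.17 to −0.05), and the homozygous ratio was 0.14 for Ank2 (−0.37 to 0.62), 0.66 for Ank3 (−0.18 to 1.41), −1.01 for Sptan1 (−2.35 to 0.08) and 0.15 for Sptbn1 (−0.64 to 0.87). The difference between the clusters was not tested.

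Excitatory neuron-like cells outside the neuronal list were found in numbers of 67 in the wild-type and 266 in the heterozygous library, and their median of 4072 and 4617 UMIs was above the deepest typical cell of either library (3957 and 3995). Ank2 had 351.4 and 300.7 CPM in them, above typical cells by 0.41 (0.07 to 0.73) and 0.49 (0.33 to 0.65). Ank3 had 131.2 and 75.4 CPM, Sptan1 122.8 and 101 CPM and Sptbn1 186.3 and 185.2 CPM. Ank3 was lower in the heterozygous than in the wild-type cells, −0.80 (−1.40 to −0.16). Of the 67 wild-type cells, 27 came from a cluster led by Eomes, a gene of intermediate progenitors, against 2 of the 266 heterozygous cells. The part of this cluster in the ratio was not tested.

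Among the glial classes, astrocyte and radial glia-like cells (463, 131 and 167) had 47.3, 27.3 and 48.1 CPM of Ank3, 48.8, 57.0 and 24.0 CPM of Sptan1, 220.5, 188.4 and 269.6 CPM of Ank2 and 155.3, 146.2 and 149.5 CPM of Sptbn1. The ratio of Ank3 to typical cells was −0.58 (−1.0 to −0.18), −1.10 (−2.11 to −0.25) and −0.40 (−1.17 to 0.28). Oligodendrocyte lineage-like cells, with 216 cells in the wild-type and 50 in the homozygous library, had 86.6 and 97.6 CPM of Ank3 and 53.9 and 52.0 CPM of Sptan1. The Ank3 value of the wild-type library was above the 81.1 CPM of the Dlx6os1 and Sp8 cluster, and in the homozygous library the log2 ratio of inhibitory neuron-like to oligodendrocyte lineage-like cells was 0.75 (−0.05 to 1.65). Microglia-like cells of the wild-type library (74) had 137.5 CPM of Ank2, 16.7 CPM of Ank3, 41.7 CPM of Sptan1 and 70.8 CPM of Sptbn1. In the same library, meningeal fibroblast-like cells (98) had 250 CPM of Sptbn1, 0.53 above typical cells (0.18 to 0.86), but 18.5 CPM of Ank3.

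**Figure D4:**
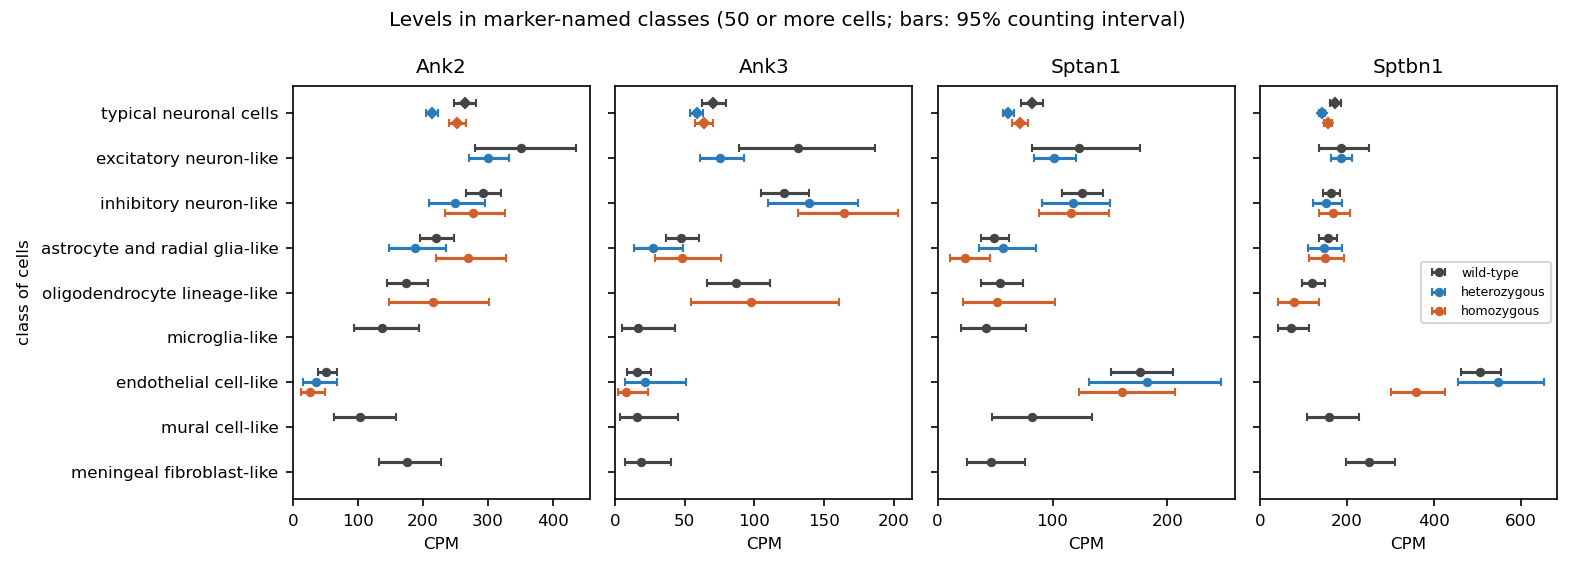
Level of each member in CPM (x axis, from 0) in typical cells (diamonds) and in marker-named classes of other cells (circles, y axis), for each library with 50 or more cells of the class, with 95% counting intervals. Sptbn1 is at 358.8 to 547.5 CPM in endothelial cell-like cells, where Ank2 is at 26.8 to 51.5 CPM.

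Of 20 member ratios to wild-type in the non-neuronal classes 2 had an interval that excluded 0. Among genes of 20 CPM or more the same held for 14.4 and 14.1% in astrocyte and radial glia-like cells and 11.8 and 12.9% in endothelial cell-like cells of the heterozygous and homozygous libraries, and for 13.9% in oligodendrocyte lineage-like cells of the homozygous library, so 2 of 20 is not a result about the members. Sptbn1 in endothelial cell-like cells was lower in homozygous than in wild-type cells, −0.50 (−0.78 to −0.22), with 0.11 (−0.18 to 0.40) for heterozygous cells. Sptan1 in astrocyte and radial glia-like cells was at −1.02 (−2.21 to −0.0082) in the homozygous library, from 9 UMIs.

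The genes that work with the members were examined in typical cells in lists chosen by function. Ratios in this and the next paragraphs are log2 ratios to wild-type, first for the heterozygous and then for the homozygous library. Of the 4 other ankyrins and spectrins of the list 1 reached 20 CPM, and 0 passed the fold. Sptb, the β-spectrin of red cells and muscle, had 7.63, 8.45 and 10.2 CPM and Sptbn4, the βIV-spectrin that ankyrin-G holds at the axon initial segment, 7.90, 5.09 and 6.58 CPM, both below that minimum. Of the 11 genes of the spectrin-actin junction, 6 reached it, with 0 past the fold for heterozygous and 1 higher for homozygous cells, where 12.3 and 11.5% of all genes were higher, and a median of −0.07 and −0.16. Tmod2, which caps the pointed end of actin, had 158.6, 138.9 and 135 CPM and ratios of −0.19 (−0.33 to −0.05) and −0.23 (−0.39 to −0.08). Dmtn, an actin-bundling protein of the junction, was the gene past the fold, with ratios of 0.35 (0.10 to 0.60) and 0.39 (0.13 to 0.67), and Add1, an adducin that caps barbed ends, had −0.11 and 0.12.

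Of 17 genes of membrane proteins held by ankyrins 7 reached 20 CPM, with 1 higher and 0 lower past the fold in each mutant library. Of all genes, 12.3 and 11.5% were higher and 7.73 and 6.39% lower past it. In each library 4 of the 7 were above 0, with a median of 0.00 and 0.05 beside 0.06 and 0.08 for all genes. Atp1b1, a subunit of the sodium pump, had 139.8, 140.2 and 134.8 CPM and ratios of 0.00 (−0.14 to 0.15) and −0.05 (−0.21 to 0.11). Of 8 scaffold and microtubule genes of the initial segment 7 reached the minimum and 0 passed the fold. Map2, the dendritic microtubule protein, had ratios of 0.22 and 0.23, the plus-end protein Mapre1 0.17 and 0.23, and Pafah1b1, a dynein regulator, −0.07 and −0.17.

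Calpains, the proteases that cleave spectrin, gave 2 of 4 genes above the minimum and 0 past the fold. Capns1, the shared small subunit, had −0.02 and 0.06, and Capn2, the catalytic subunit of m-calpain, 0.35 and 0.23 with intervals that covered 0. Capn1 stood at 1.91, 3.36 and 4.45 CPM. In these 5 lists no gene of at least 20 CPM was lower past the fold in a mutant library, where 7.73 and 6.39% of all genes were, which is not a result about the lists.

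The genes most like each member were found as those with the highest Pearson r of log2(CPM + 1) over the 9 sums of library and cell set, among 2375 genes that averaged 50 CPM or more. They included Tst (0.93), B3gat1 (0.88) and Map4 (0.88) for Ank2, Hsd17b10 (0.92), Cxcl14 (0.90) and Polr2h (0.87) for Ank3, Fam133b (0.93), Cuta (0.93) and Cdk11b (0.93) for Sptan1, and Aimp1 (0.91) and Cwc15 (0.91) for Sptbn1. The 9 sums share 3 libraries, and the highest of 2375 values is high by selection, so these are descriptions. Between members, r was 0.61 for Sptan1 with Sptbn1, where 429 of the 2374 other genes were more like Sptan1 and 318 more like Sptbn1, and 0.14 for Ank2 with Ank3, where 932 were more like Ank2 and 637 more like Ank3. The pairs of an ankyrin with a spectrin had 0.01 for Ank2 with Sptan1, −0.30 for Ank2 with Sptbn1, −0.46 for Ank3 with Sptan1 and −0.61 for Ank3 with Sptbn1. Ank3 was highest in heterozygous atypical cells, at 111 CPM from 24 UMIs, and lay between 58.5 and 70.6 CPM in the other sums. Hsd17b10, Cxcl14 and Polr2h were also highest in that sum, and Sptan1 and Sptbn1 were lowest there, from 12 and 27 UMIs. The r values of Ank3 without that sum were not computed.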

How the data were processed

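tdTomato+ cells of the mPFC at P5 were profiled by the authors with the 10X Single Cell 3′ v2 kit, 1 library per genotype. Cell Ranger 2.0.1 (mm10) gave the UMI counts that the authors deposited, the per-library matrices hold every barcode without normalization, and the filtered table holds raw counts of 17396 cells and 14933 genes. The mitochondrial share of each cell was deposited as a fraction. The table of 11943 neuronal cells and 7174 genes was deposited on a natural log scale, ln(1 + UMIs per 10000), and its member values gave back the raw UMIs, so it served to identify cells and genes. The scaled and centered table of the authors was not used. The authors compared cells with MAST, which was not repeated, because the cells of a genotype come from 1 library.

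The deposited cell lists gave the library of each cell and whether it was typical or atypical. Raw UMIs were summed per library and cell set and expressed as CPM over the UMIs of that set. All barcodes of a library together held 55057757 (wild-type), 34906481 (heterozygous) and 33322518 (homozygous) UMIs. Sums carry an exact Poisson and log2 ratios an exact conditional binomial (Clopper-Pearson) 95% interval, and shares of cells an exact binomial one, counting error only. A gene counted as past the fold at 1.3-fold among genes that averaged 20 CPM or more over both sums. Empty droplets numbered 44157, 40520 and 55787. Other cells were clustered with scanpy 1.11.5 (2000 variable genes, 30 principal components, 15 neighbors, Leiden resolution 1, members and mitochondrial genes left out) and a cluster was named where at least 3 markers of a class were raised, 1 or more of them stood among its 10 leading genes and no other class had more there. No doublet caller was run. The 2080 cells of unnamed clusters, among them clusters led by genes of macrophages, of dividing cells and of blood, were in no class, and classes under 50 cells in a library were not given.

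Named genes were the 4 members, Tbr1, the 3 genes of highest mean CPM in each companion list, genes of at least 20 CPM past the fold in the same direction in both mutant libraries, and the 3 genes most like each member. The members, lists and markers were chosen with earlier results of these data known. Some genes that this rule names are not reported here. Sptbn5 was not analysed here, and Scn2a is listed as Scn2a1. Alternatives were another denominator of CPM, DESeq2 1.42.0 size factors and edgeR 4.0.16 TMM factors (R 4.3.3), raw UMIs per cell without scaling, the average over cells of UMIs per 10000, thinning to 1000 UMIs, removal of the 5% deepest cells, inclusion of atypical cells, cells matched in bins of 100 UMIs, subtraction of the empty-droplet profile, and, chosen after seeing the data, mitochondrial genes out of the denominator, cells with 10 to 15% mitochondrial UMIs, and the other scalings applied to genotype ratios in other cells. On simulated data for heterozygous over wild-type typical sums (4263 genes, 200 changed 1.6-fold), 97.5% of changed and 1.26% of unchanged genes passed the fold, and 95.2% of intervals held the true ratio. Both simulated sums were drawn with Poisson error only, the same error that the intervals assume. The simulation therefore checks the calculation and says nothing about differences between libraries.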

Additional observations from a re-analysis of the deposited data

Results flagged for a closer look

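Ank2 had opposite signs in 2 cell sets under the same contrast. The heterozygous over wild-type log2 ratio was 0.18 (0.06 to 0.30) in cells outside the neuronal list and −0.31 (−0.42 to −0.20) in typical neuronal cells, and both intervals exclude 0. The opposite sign was not kept under every processing, as the value in cells outside the list was −0.22 when cells were thinned to 1000 UMIs and −0.05 as the average over cells of UMIs per 10000, and lay between 0.09 and 0.37 under 6 other alternatives, all chosen after seeing the data. With 1 library per genotype the difference was not tested. In the 4 named classes of other cells with at least 50 cells in both libraries the ratio was below 0, between −0.57 and −0.22, with intervals that covered 0. The heterozygous library gave 264 of the 331 cells in the Nrgn-led cluster outside the list, and in empty droplets the ratio was −0.44 (−0.55 to −0.32).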

How the results depend on the processing

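In typical cells all 4 members were lower in the heterozygous than in the wild-type library under each of the 12 alternatives, with log2 ratios of −0.54 to −0.22 for Ank2, −0.42 to −0.19 for Ank3, −0.51 to −0.22 for Sptan1 and −0.36 to −0.19 for Sptbn1. Sptan1 fell short of 1.3-fold at −0.22 in cells with 10 to 15% mitochondrial UMIs, at −0.32 in cells matched for UMIs and at −0.33 without mitochondrial genes in the denominator. In the cells of 10 to 15% (947, 2184 and 2437), Ank2 moved to −0.54 for heterozygous over wild-type, −0.19 for homozygous over wild-type and 0.36 for homozygous over heterozygous. Subtraction of the empty-droplet profile, at shares of 22.5, 12.4 and 15.3%, gave −0.39, −0.35, −0.51 and −0.35 for heterozygous over wild-type in the order Ank2, Ank3, Sptan1, Sptbn1.

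Thinning to 1000 UMIs gave −0.08, −0.23, −0.27 and −0.14 for homozygous over wild-type in the same order, within the counting intervals. As mean raw UMIs per cell, homozygous over wild-type moved to −0.48, −0.57, −0.62 and −0.57, and homozygous over heterozygous to −0.091, −0.21, −0.12 and −0.21, since homozygous cells had fewer UMIs. With 1528 cells per library matched in bins of 100 UMIs, homozygous over wild-type moved to 0.13 for Ank2 and 0.054 for Sptan1, with 0.07 for Ank3 and −0.04 for Sptbn1, and Ank2 homozygous over heterozygous to 0.35. Of the ratios between genotypes 130 moved by less than their counting interval and 14 by more. For the genotypes in other cells, 51 stayed within it and 13 moved, with Ank2 heterozygous over wild-type at −0.22 to 0.37. Between cell sets, Ank2 in other over typical cells turned to 0.027 in the wild-type and 0.15 in the homozygous library as mean raw UMIs per cell. Ratios between cell sets stayed within the counting interval in 124 cases, 42 moved and 2 reversed. A change of scale shifts every gene alike. For the ratios between genotypes in typical cells the neuronal denominator, DESeq2 and TMM shifted genes by at most 0.06 and removal of mitochondrial genes from the denominator by up to 0.08. Raw UMIs per cell gave −0.09 for heterozygous and −0.42 for homozygous over wild-type there. In other cells, Ank2 heterozygous over wild-type went from 0.18 to 0.37 with DESeq2, 0.35 with TMM and 0.30 without mitochondrial genes. For other over typical cells DESeq2 gave −0.57, −0.35 and −0.45 and TMM −0.45, −0.24 and −0.35, in the order wild-type, heterozygous, homozygous, and Ank2 went to −1.08 with DESeq2 in the wild-type library.

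At 1.5-fold, 106 genes were lower and 149 higher in the heterozygous library (327 and 522 at 1.3-fold), and 84 and 124 in the homozygous library (273 and 489). Without the minimum of 20 CPM, 3361 and 2619, and 3170 and 2716, passed 1.3-fold. Over all genes of at least 20 CPM, 2 of the 3 genes most like Ank2 and Sptan1 and 1 of 3 for Ank3 and Sptbn1 stayed on the list. By rank correlation 1 of 3 did for each member. No paired analysis was possible because each genotype has 1 library and no result comes from a test, and for the same reason no replicate could be left out.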
